A study of Mus musculus with 6 samples.

Results

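The genes described here encode the subunits of RNA polymerases I, II and III, the general transcription factors that place these enzymes at promoters, and the Mediator complex. They were chosen by symbol alone, as every probe set that the platform annotation gives to a single gene whose symbol begins with Polr1, Polr2, Polr3, Gtf2, Gtf3, Med plus a digit or Taf plus a digit, together with Tbp, Brf1 and Ubtf. This gave 72 probe sets for 57 genes, out of 12422 probe sets on the array, array controls left out, and 8251 genes that have a probe set of their own. Of the 57 genes, 8 serve polymerase I, 34 polymerase II, 8 polymerase III, and 7 are shared between polymerases. Brf1 had no probe set of its own in this annotation.

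RNA was taken from the livers of 3 Rb null and 3 wild type mouse embryos at embryonic day 12.5 and read on 1 Affymetrix array per embryo. Parents were Rb heterozygous 129sv mice, the embryos were untreated, and the livers were disaggregated in PBS before RNA extraction. The labels do not describe the Rb allele, and they name no Cre driver or tissue to which its loss was limited. The comparison asks how transcript levels in the Rb null livers differ from those in the wild type livers. Values are MAS5 signals, a linear measure of brightness per probe set, and signals of different probe sets are not compared with each other. Every log2 fold change sets Rb null over wild type after 50.02 was added to each signal, is given ± SE, and understates the change of dim genes. A gene is said to have risen or fallen only where the limma adjusted p over all tested probe sets was below 0.05. The number of arrays limits the precision.

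Each polymerase makes its own class of RNA. Polymerase I makes the large ribosomal RNA precursor with the help of the factor UBF and the TBP-containing complex SL1. Polymerase II makes messenger RNA with TFIIA, TFIIB, TFIID, TFIIE, TFIIF, TFIIH and Mediator, and polymerase III makes transfer RNA and 5S ribosomal RNA with TFIIIA, TFIIIB and TFIIIC. The retinoblastoma protein is known to restrain polymerases I and III, by binding UBF and TFIIIB, and to restrain many polymerase II genes by binding E2F factors. The transcript levels given here are those of the machinery and do not measure how active each polymerase was.

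The Rb1 signals were 139, 142 and 127 in the Rb null livers, against 791, 754 and 706 in the wild type livers (log2 fold change -2.10 ± 0.09, adjusted p = 7.77e-06). All Rb null values lay below all wild type values, although a probe outside the deleted part of the gene would not check the genotype. Med4, a Mediator gene that is the sixth annotated gene from Rb1 on chromosome 14, was not analysed here because no probe set carried its symbol alone. Cell type markers differed between the genotypes in the same RNA. Of 8 erythroid markers 6 fell, and their summed signal was 48119 to 53506 in Rb null against 60521 to 65470 in wild type livers. Markers that rose numbered 4 of 6 tested for granulocytes (sums of 8618 to 8950 in Rb null against 6365 to 6546 in wild type livers), 3 of 4 for megakaryocytes (2557 to 2984 against 1539 to 1641), 4 of 6 for mesenchyme (10485 to 11361 against 8347 to 8473), 3 of 7 for endothelium (4479 to 4970 against 3681 to 3905) and 2 of 8 for macrophages (4283 to 4680 against 3870 to 4270). Of 8 hepatoblast markers 1 rose and 2 fell (35479 to 38151 against 38376 to 41755). No marker was listed at 0, while Pecam1, Ctsg, Adgre1, Pf4, Des and Pdgfrb lay below the signal filter. The part of these shifts in the results below was not tested. In whole livers, fewer cells of a type and less RNA per cell cannot be told apart.

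Most of the chosen transcription machinery genes differed little between Rb null and wild type livers, and those that passed the test were all lower. Of the 57 genes, 54 had a probe set above the signal filter of 150.1 and were tested, each by its brightest probe set. Of these, 7 fell in the Rb null livers (13.0%), none rose and 47 did not pass, whereas 9.50% of all 5273 tested genes fell, 13.1% rose and 22.6% passed in either direction. The share that fell was thus close to that of the whole array. At an unadjusted p below 0.05, 12 of the 54 members were lower and 2 were higher, against 15.8% of all tested genes lower and 20.7% higher. The 7 genes were the polymerase subunits Polr2l, Polr2f, Polr2j and Polr2a, the TFIIH subunit Gtf2h1, the TFIID subunit Taf10 and the Mediator subunit Med24.

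The 3 Rb null values lay wholly below the 3 wild type values for 13 members (24.1%), against 17.6% of all tested genes. They lay wholly above for 2 members (3.70%), against 23.5% of all tested genes, and 41.2% of all tested genes were separated in one direction or the other. The median log2 fold change of the 54 members was -0.08, beside 0.02 for all tested genes. Relative to its own mean over the embryos, the typical member stood at -0.08, -0.05 and -0.01 in the Rb null livers and at 0.03, 0.05 and 0.05 in the wild type livers, in log2 units. All 7 genes that fell were among the 34 members with a mean signal above 500.2, of which they were 20.6%. Of all tested genes in that range 15.0% fell and 12.7% rose. The median log2 fold change in that range was -0.08 for members and -0.02 for all tested genes. At or below 500.2 it was -0.03 for members and 0.08 for all tested genes. Members varied between embryos of a genotype as other genes did, with a median SD of 0.11 log2 units for members and for all tested genes alike.

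**Figure D1:**
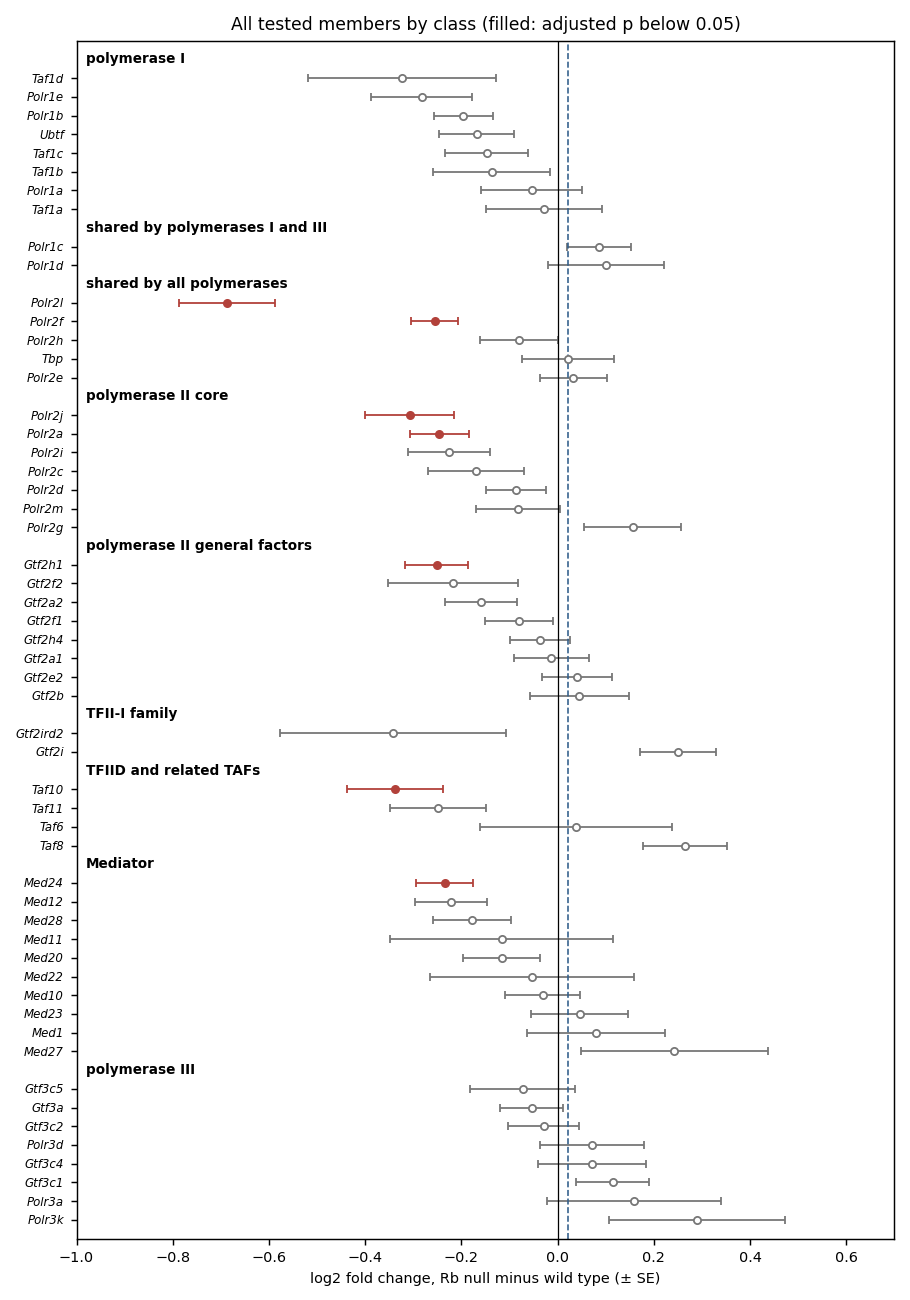
Log2 fold changes (Rb null over wild type, x axis, ± SE) of the 54 tested genes, in rows grouped by the part of the machinery they belong to, with filled red points for the 7 genes past the threshold and a dashed line at the median of all tested genes (0.02). The filled points are all left of 0 and Polr2l lies farthest left, at -0.69.

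The largest change was that of Polr2l, which encodes a small zinc-binding subunit (RPB10 in yeast) that is built into all 3 polymerases. Its signals were 2043, 2307 and 2031 in the Rb null livers, against 3542, 2976 and 3891 in the wild type livers. The highest Rb null liver stayed well below the lowest wild type liver, although the wild type livers were spread more widely. Polr2l averaged 2127 ± 156 in Rb null livers, against 3470 ± 461 in wild type livers (SD, n = 3 each). Its log2 fold change was -0.69 ± 0.10 (adjusted p = 0.00276), which is 62.1% of the wild type level with the 50.02 added. The call was kept under all 18 alternative settings, with log2 fold changes from -0.82 to -0.60.

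Polr2f, which encodes another subunit shared by the 3 enzymes (RPB6 in yeast), fell by a smaller amount and with little spread. The signals were 2812, 2790 and 2777 in the Rb null livers, against 3298, 3263 and 3474 in the wild type livers. The groups were well apart, and the Rb null livers lay very close together (2793 ± 17.6 in Rb null against 3345 ± 113 in wild type livers, SD). The change was -0.26 ± 0.05 (adjusted p = 0.00932), and it missed the threshold only after quantile normalization (-0.15, adjusted p = 0.0514), among 18 alternatives.

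The other shared members did not pass. Polr2e, the RPB5 homologue, had 725, 791 and 699 in Rb null against 724, 707 and 730 in wild type livers (0.03 ± 0.07), and Polr2h, the RPB8 homologue, changed by -0.08 ± 0.08. Tbp, the TATA-binding protein that all 3 systems use, had signals of 365, 362 and 397 in Rb null livers and of 401, 379 and 327 in wild type livers (0.02 ± 0.10, adjusted p = 0.895). Its groups overlapped fully, and the sign of this small difference turned negative under 5 of 17 alternatives. The subunits shared by polymerases I and III alone, Polr1c (0.09 ± 0.07) and Polr1d (0.10 ± 0.12), also had overlapping groups. The fall was therefore measured for 2 of the 7 shared genes (28.6%, against 9.50% of all tested genes). The other members of the same class did not pass the test. Whether Polr2l differed from them was not tested. The shared subunit gene Polr2k was no member, because its only probe set is also listed for a predicted gene. That probe set was higher in the Rb null livers (0.47 ± 0.11, limma adjusted p = 0.0183).

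**Figure D2:**
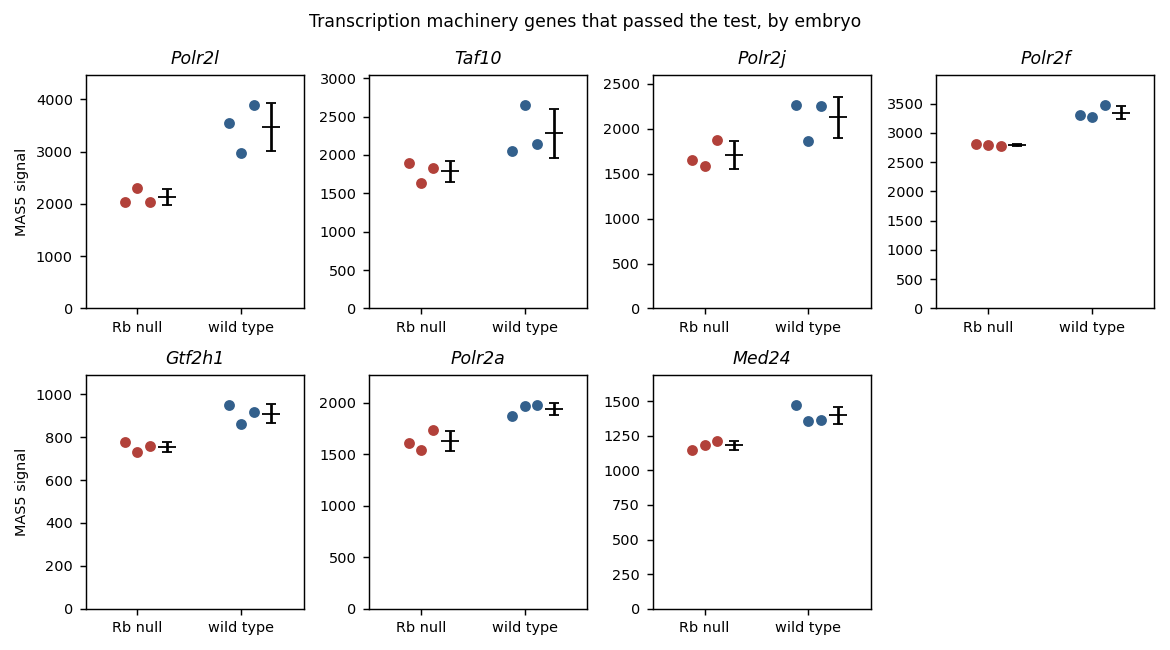
MAS5 signal (y axis, from 0) in each embryo for the 7 genes that passed the test, in order of their change, with Rb null embryos in red on the left and wild type embryos in blue on the right of each panel. Bars show the mean ± SD of 3 embryos, and the genotypes are apart in every panel but that of Polr2j.

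Of the 31 tested polymerase II members 5 fell (16.1%, against 9.50% of all tested genes). Of the 7 Polr2 genes counted with the polymerase II core by symbol alone, 2 fell (28.6%) and 5 did not pass. Polr2a encodes the largest, catalytic subunit, whose repeated tail is phosphorylated during the transcription cycle. Its signals were 1609, 1537 and 1737 in the Rb null livers, against 1872, 1965 and 1974 in the wild type livers. The groups did not overlap (1628 ± 101 in Rb null against 1937 ± 56.7 in wild type livers), and the change was -0.25 ± 0.06 (adjusted p = 0.0258). A dimmer Polr2a probe set had overlapping groups and did not pass (-0.16 ± 0.13, adjusted p = 0.418). With the mean of both probe sets the gene no longer passed (-0.20, adjusted p = 0.114), nor without Rb null embryo 1 (adjusted p = 0.0785) or 2 (adjusted p = 0.0803) or without wild type embryo 2 (adjusted p = 0.0659) or 3 (adjusted p = 0.0812). Cyclic loess (adjusted p = 0.057) and a test with no intensity trend (adjusted p = 0.0523) ended the call as well, which made 7 losses in 18 alternatives.

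Polr2j, the RPB11 subunit that pairs with RPB3 early in assembly of the enzyme, had signals of 1655, 1587 and 1881 in the Rb null livers, against 2266, 1868 and 2251 in the wild type livers. One Rb null liver stood slightly above the lowest wild type liver, so the groups touched. The change was -0.31 ± 0.09 (adjusted p = 0.0476), close to the threshold, and it was lost on leaving out Rb null embryo 1 or 2 or wild type embryo 1 or 3 (adjusted p from 0.133 to 0.144). Quantile normalization (adjusted p = 0.0721) and cyclic loess (adjusted p = 0.0806) also ended it, as did dropping the signal filter (adjusted p = 0.0904) or the intensity trend (adjusted p = 0.0784), so that 8 of 18 alternatives did.

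Polr2i, the RPB9 subunit, lay at 311, 323 and 349 in the Rb null livers, against 372, 391 and 412 in the wild type livers. Its groups were apart, but the test was not passed (-0.23 ± 0.09, adjusted p = 0.0961). Polr2c, the partner of Polr2j (-0.17 ± 0.10), Polr2d (-0.09 ± 0.06) and Polr2m (-0.08 ± 0.09) had overlapping groups. Polr2g, which forms a stalk on the enzyme together with Polr2d, was the one core gene with a positive value at the deposited scaling (0.16 ± 0.10, adjusted p = 0.31).

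The promoters of the 4 polymerase subunit genes that fell are shown because their transcripts were lower in the same livers, and because E2F factors are the best known partners of the retinoblastoma protein. Each is the stretch of 250 bases before the annotated start of the gene, from RefSeq on GRCm38.p6, 5′ to 3′ on the strand of the gene. They lie at chr7:141475154-141475403 on the minus strand for Polr2l, chr15:79141075-79141324 on the plus strand for Polr2f, chr5:136116441-136116690 on the plus strand for Polr2j and chr11:69758634-69758883 on the minus strand for Polr2a. Capitals mark matches on either strand to the E2F letters TTTCCCGC or TTTGGCGC, the ETS letters CCGGAAGT, the NRF1 letters GCGCATGC, the YY1 letters AAGATGGC, the Sp1 letters GGGCGG and the TATA letters TATAAA.
Polr2l: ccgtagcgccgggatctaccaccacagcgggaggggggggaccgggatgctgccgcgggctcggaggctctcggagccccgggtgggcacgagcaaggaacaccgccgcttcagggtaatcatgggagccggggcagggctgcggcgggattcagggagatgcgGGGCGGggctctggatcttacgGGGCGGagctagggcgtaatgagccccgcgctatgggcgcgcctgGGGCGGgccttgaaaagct
Polr2f: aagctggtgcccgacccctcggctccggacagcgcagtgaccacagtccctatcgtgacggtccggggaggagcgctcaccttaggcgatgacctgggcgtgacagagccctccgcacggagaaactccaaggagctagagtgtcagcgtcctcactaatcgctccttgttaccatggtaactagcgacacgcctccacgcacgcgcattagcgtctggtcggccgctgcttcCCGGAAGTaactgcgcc
Polr2j: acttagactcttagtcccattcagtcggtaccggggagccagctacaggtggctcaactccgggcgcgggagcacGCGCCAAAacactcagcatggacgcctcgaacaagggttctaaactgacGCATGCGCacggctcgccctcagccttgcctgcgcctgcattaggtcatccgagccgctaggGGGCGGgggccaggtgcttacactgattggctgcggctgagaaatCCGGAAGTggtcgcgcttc
Polr2a: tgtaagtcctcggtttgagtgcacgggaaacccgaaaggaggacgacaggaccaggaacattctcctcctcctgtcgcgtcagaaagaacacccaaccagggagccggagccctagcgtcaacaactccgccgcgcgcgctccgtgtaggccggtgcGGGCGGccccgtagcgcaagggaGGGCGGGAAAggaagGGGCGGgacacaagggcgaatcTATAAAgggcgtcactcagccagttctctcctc

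The 4 promoters differed in the letters they held. The Polr2l stretch held 3 Sp1 matches and no E2F match, and the Polr2f stretch held a single ETS match that began at position -17 from the start site. The Polr2j stretch held an E2F match on the opposite strand at -175, with an NRF1, an Sp1 and an ETS match nearer the start. In Polr2a an E2F match on the opposite strand at -68 overlapped an Sp1 match at -70, and TATA letters began at -33. Positions are those of the leftmost base as printed.

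Over windows from 250 bases before to 50 bases after the start, 50 of the 57 genes had at least 1 window. E2F letters were found in 4 of them, or 8.0% (Polr2a, Polr2c, Polr2j and the untested Med14), against 3.27% of the 6572 genes on the array that had windows and 1.56% of all 32851 windows. ETS letters were found in 11 of the 50 genes (22%), against 7.81% of the array's genes and 3.89% of all windows. NRF1 letters were found in 6 (12%, against 5.30% and 2.71%), YY1 letters in 3 (6.0%, against 4.61% and 2.75%), Sp1 letters in 32 (64.0%, against 63.1% and 35.7%) and TATA letters in 7 (14%, against 12.2% and 13.6%). A gene counts where any of its windows holds the letters, so its share is not like a share of single windows. Of the 64 member windows, 6.25% held E2F, 18.75% ETS, 12.5% NRF1, 4.69% YY1, 57.8% Sp1 and 10.9% TATA letters. A match is a description of the letters and not of a bound factor, and the shares were not tested.

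Among the general factors of polymerase II, 1 of 8 genes fell (12.5%, against 9.50% of all tested genes) and 7 did not pass. Gtf2h1 encodes the p62 subunit of TFIIH, the complex that opens promoter DNA and also acts in nucleotide excision repair. Its signals were 777, 730 and 759 in the Rb null livers, against 948, 861 and 918 in the wild type livers. The groups were apart (755 ± 23.5 in Rb null against 909 ± 44.3 in wild type livers), with a change of -0.25 ± 0.07 (adjusted p = 0.0289). Omitting wild type embryo 2 kept this call, and each of the 5 other omissions ended it (adjusted p between 0.0587 and 0.0953).

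Gtf2h4, another TFIIH subunit, did not pass (1145, 1071 and 1149 in Rb null against 1156, 1100 and 1200 in wild type livers, -0.04 ± 0.06). Gtf2a2, the small subunit of TFIIA, had the next smallest p in this class (-0.16 ± 0.08, adjusted p = 0.171). Gtf2a1, Gtf2b, Gtf2e2, Gtf2f1 and Gtf2f2 had overlapping groups and changes between -0.22 and 0.05.

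TFIID, which recognises core promoters, was represented by 4 tested TAF genes. Of these 1 fell (25%, against 9.50% of all tested genes) and 3 did not pass. Taf10, a histone-fold subunit of TFIID and of the SAGA coactivator, had signals of 1892, 1638 and 1829 in the Rb null livers, against 2054, 2651 and 2139 in the wild type livers. The groups were narrowly apart, and 1 wild type liver stood high. The change was -0.34 ± 0.10 (adjusted p = 0.0453). This call was the least stable of the 7, being lost under 10 of 18 alternatives, 5 of which each omitted an embryo other than wild type embryo 1 (adjusted p between 0.0701 and 0.14).

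Taf8, the histone-fold partner of TAF10, had higher values in the Rb null livers, at 377, 341 and 342 against 294, 293 and 270.1 in the wild type livers. These groups did not overlap either, but the test was not passed (0.27 ± 0.09, adjusted p = 0.0635). Taf11 lay lower in every Rb null liver (498, 545 and 490.2 in Rb null against 575, 715 and 567 in wild type livers) without passing (-0.25 ± 0.10, adjusted p = 0.114). Taf6 was dim and did not differ beyond its spread (0.04 ± 0.20). Taf15 stayed below the signal filter and was not tested.

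Of the 12 Mediator genes 10 were tested. Of these 1 fell (10%, against 9.50% of all tested genes) and 9 did not pass. Med24, a subunit of the Mediator tail that contacts activators, had signals of 1144, 1183 and 1210 in the Rb null livers, against 1469, 1357 and 1364 in the wild type livers. The groups were clearly apart (1179 ± 33.1 in Rb null against 1396 ± 62.8 in wild type livers), and the change was -0.23 ± 0.06 (adjusted p = 0.0258). Without Rb null embryo 1 (adjusted p = 0.0824) or 2 (adjusted p = 0.066), or without wild type embryo 1 (adjusted p = 0.0892) or 3 (adjusted p = 0.058), the call was lost.

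Med12, of the kinase module that restrains Mediator, was lower in each Rb null liver without passing (725, 703 and 827 in Rb null against 902, 878 and 868 in wild type livers, -0.22 ± 0.08, adjusted p = 0.0698). Med28 showed the same separation (-0.18 ± 0.08, adjusted p = 0.155). Med1, the subunit that binds nuclear receptors and GATA factors, had overlapping groups, with 467, 491 and 642 in Rb null livers, against 484, 426 and 596 in wild type livers (0.08 ± 0.14). Med10, Med11, Med20, Med22, Med23 and Med27 likewise overlapped, with changes between -0.12 and 0.24. Med14, the backbone subunit, and Med12l were below the signal filter. The kinase gene Cdk8, the catalytic partner of MED12 and no member by symbol, had 2067, 2312 and 2069 in Rb null against 2533, 2305 and 2468 in wild type livers (-0.18 ± 0.07, adjusted p = 0.09).

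Gtf2i, which encodes TFII-I, a signal-responsive factor that binds initiator elements, was the member with the clearest higher values. Its brighter probe set read 2220, 2131 and 2318 in the Rb null livers, against 1801, 1712 and 2088 in the wild type livers, and narrowly missed the threshold (0.25 ± 0.08, adjusted p = 0.0546). The dimmer one, of a kind that can bind several transcripts, read 931, 903 and 907 in Rb null against 538, 649 and 554 in wild type livers (0.62 ± 0.08, adjusted p = 0.00182). Both probe sets had groups that did not overlap, and they differed in the size of the change. With the mean of both, Gtf2i passed (0.43, adjusted p = 0.00189), as it did under 7 of 18 alternatives, including quantile normalization (0.31, adjusted p = 0.0247). Its relative Gtf2ird2 was dim, with Rb null values that ran from 140.1 to 352 against 287 to 316 in wild type livers (-0.34 ± 0.24).

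**Figure D3:**
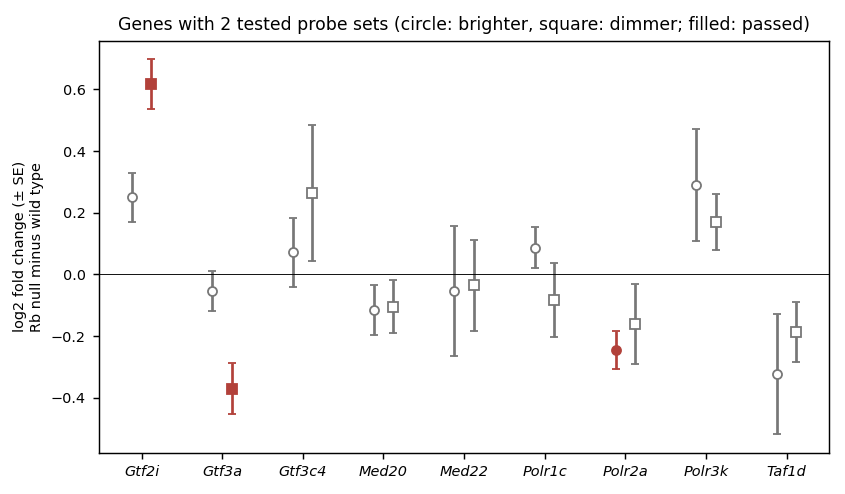
Log2 fold changes (Rb null over wild type, y axis, ± SE) of the 9 genes that had 2 tested probe sets, with circles for the brighter and squares for the dimmer one, and filled symbols for those past the threshold. The probe sets of Gtf2i, Gtf3a and Polr2a differ in whether they passed, and those of Polr1c lie on opposite sides of 0.

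The 8 member genes particular to polymerase I all had negative values, yet none passed the test. Of the 8 genes 0 fell by limma's adjusted p, against 9.50% of all tested genes. At an unadjusted p below 0.05, 2 of the 8 were lower, against 15.8% of all tested genes. Their log2 fold changes ran from -0.32 to -0.03 with a median of -0.16, beside 0.02 for all tested genes. The median stayed negative under all 18 alternatives, also relative to all tested genes (from -0.23 to -0.15 with those alternatives). Without Rb null embryo 1 or 2 or wild type embryo 2 or 3, 7 of the 8 genes were negative. The groups did not overlap for Polr1b, Polr1e and Taf1c (37.5%, against 17.6% of all tested genes).

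Polr1b, the second largest subunit of polymerase I, came closest to the threshold. Its signals were 698, 714 and 691 in the Rb null livers, against 788, 828 and 815 in the wild type livers. The spread was small in both genotypes (701 ± 11.6 in Rb null against 810.3 ± 20.6 in wild type livers), and the change was -0.20 ± 0.06 (adjusted p = 0.0531). It passed under 5 of 17 alternatives, among them quantile normalization (adjusted p = 0.0304) and cyclic loess (adjusted p = 0.0333). Its probe set is of a kind that can bind several transcripts.

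Polr1e, which encodes the PAF53 subunit, lay at 207, 180.4 and 221 in the Rb null livers, against 267, 239 and 265 in the wild type livers (-0.28 ± 0.11, adjusted p = 0.0928). It passed only after median scaling, quantile normalization or cyclic loess (adjusted p from 0.0304 to 0.041). Polr1a, the largest subunit, had 667, 622 and 799.8 in Rb null against 701, 668 and 798 in wild type livers, with fully overlapping groups (-0.05 ± 0.11).

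Ubtf, the gene of the UBF factor of ribosomal DNA, had signals of 1380, 1297 and 1456 in the Rb null livers, against 1417, 1560 and 1693 in the wild type livers. The groups touched and the test was not passed (-0.17 ± 0.08, adjusted p = 0.163). Of the SL1 subunits, Taf1c was lower in each Rb null liver (290.3, 303 and 324 in Rb null against 360, 330 and 342 in wild type livers) without passing (-0.15 ± 0.09). Taf1a, Taf1b and Taf1d had overlapping groups. The initiation factor gene Rrn3, which links polymerase I to SL1 and is no member by symbol, had 433, 432 and 424 in Rb null against 478, 544 and 544 in wild type livers (-0.25 ± 0.08, adjusted p = 0.0541). Znrd1, which encodes a polymerase I subunit but is no member by symbol, had a positive value and overlapping groups (0.05 ± 0.10). So did Ttf1 (0.15 ± 0.10), and both are listed like Rrn3 with the partners of polymerases I and III.

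**Figure D4:**
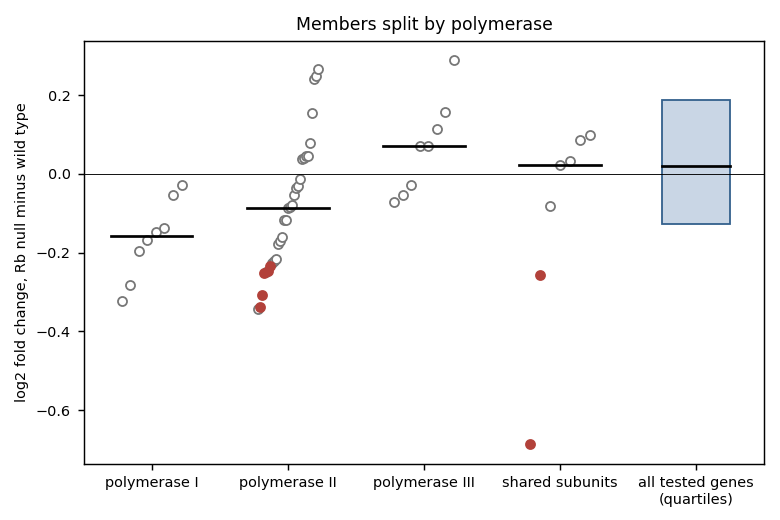
Log2 fold changes (Rb null over wild type, y axis) of the tested members split by the polymerase they serve, with a point per gene, red where the gene passed the test, and a black line at each median. The box gives the quartiles of all tested genes (-0.13 and 0.19), and the medians are -0.16 for polymerase I, -0.09 for polymerase II, 0.07 for polymerase III and 0.02 for shared genes.

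None of the 8 polymerase III members passed the test, against 22.6% of all tested genes. None had an unadjusted p below 0.05, against 36.5%. The groups of all 8 overlapped, while those of 41.2% of all tested genes did not. The median log2 fold change of the 8 members was 0.07, with 5 positive and 3 negative values. The median turned to -0.04 after quantile normalization and median scaling, to -0.03 after cyclic loess and with the stricter signal filter, and to -0.01 without wild type embryo 3. Relative to all tested genes, the median was 0.05 as reported and 0.06 after median scaling. It was -0.02 after quantile normalization, after cyclic loess and without wild type embryo 3. With the stricter filter, which left 3 of the 8 genes, it was -0.01. No direction of the group can therefore be given.

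Polr3a, the largest subunit, read 232, 237 and 193 in the Rb null livers, against 241, 218 and 131 in the wild type livers (0.16 ± 0.18), with 1 low wild type liver. Polr3k, a small subunit that acts in termination, had the highest value of the class, at 463, 540.4 and 417 in Rb null against 526, 332 and 302 in wild type livers (0.29 ± 0.18, adjusted p = 0.296). Its dimmer probe set had groups that did not overlap (310.1, 321 and 279 in Rb null against 265, 267 and 259.7 in wild type livers) and did not pass (0.17 ± 0.09). Of the TFIIIC genes, Gtf3c1, the largest subunit, changed by 0.11 ± 0.08, and Gtf3c2, Gtf3c4 and Gtf3c5 lay between -0.07 and 0.07. Crcp encodes a polymerase III subunit, but it is listed with the partners and is no member by symbol. It read 284, 254 and 306 in Rb null against 310, 344 and 352 in wild type livers. Its groups were apart, but it did not pass (-0.22 ± 0.10, adjusted p = 0.15). Of the 8 genes listed as partners of polymerases I and III, 4 had negative and 4 positive values.

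Gtf3a, the gene of the 5S ribosomal RNA factor TFIIIA, gave different answers on its probe sets. The brighter one read 869, 893 and 964 in the Rb null livers, against 957, 914 and 963 in the wild type livers, and did not pass (-0.05 ± 0.06). The next read 583, 519 and 485 in the Rb null livers, against 681, 682 and 727 in the wild type livers, with groups apart (-0.37 ± 0.08, adjusted p = 0.0162). The brighter one is of a kind that shares probes with other probe sets, and without such probe sets Gtf3a counted as lower.

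Partners of the machinery, and some subunits, that the symbol rule leaves out were also measured, in 45 tested genes of 6 groups. Of these 1 rose (2.22%, against 13.1% of all tested genes) and 5 fell (11.1%, against 9.50%). The 5 that fell were all among the 17 genes of elongation and pausing (29.4%, against 9.50% of all tested genes), where none rose and the median was -0.09. All of the 17 but Ccnt1 had a mean signal above 500.2, a range in which 15.0% of all tested genes fell. At an unadjusted p below 0.05, 6 of the 17 passed, all lower, against 36.5% of all tested genes in either direction and 15.8% lower. Elof1, an elongation factor bound to polymerase II, had 1065, 1035 and 1070 in the Rb null livers, against 1360, 1389 and 1329 in the wild type livers. The groups were far apart relative to their spread (-0.35 ± 0.05, adjusted p = 0.00376), and the call was kept under all 18 alternatives.

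Ell2, a subunit of the super elongation complex, had 5087, 4913 and 5091 in Rb null against 6182, 5979 and 6155 in wild type livers (-0.28 ± 0.05, adjusted p = 0.00543). Its change was -0.08 and did not pass (adjusted p = 0.642) when probe sets whose suffix marks shared or less specific probes were left out. Tcea2, which encodes a TFIIS protein that rescues stalled polymerase, also fell (-0.26 ± 0.07, adjusted p = 0.0295). So did the Elongin subunit genes Eloa (-0.23 ± 0.06, adjusted p = 0.0306) and Elob (-0.25 ± 0.07, adjusted p = 0.044). The Elongin gene Eloc (-0.09 ± 0.09) and the Tcea2 relative Tcea1 (-0.12 ± 0.07) had overlapping groups and did not pass. The pause factor genes Nelfa, Nelfcd, Nelfe and Supt5 and the kinase gene Cdk9 did not pass, with changes between -0.09 and 0.11.

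Among tail phosphatases and assembly factors of polymerase II, 1 of 9 genes rose (11.1%, against 13.1% of all tested genes). Ctdsp2, a small phosphatase of the polymerase II tail, had 2135, 1919 and 2109 in Rb null against 1564, 1483 and 1854 in wild type livers (0.33 ± 0.09, adjusted p = 0.0322), a call lost under 8 of 18 alternatives, including median scaling (0.19, adjusted p = 0.188). Leaving out Rb null embryo 1 or 3 or wild type embryo 1 or 2 also ended it (adjusted p from 0.0772 to 0.105). Rprd1a did not pass (0.17 ± 0.07, adjusted p = 0.136).

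No gene passed in the remaining groups, where 4 of 19 tested genes had an unadjusted p below 0.05, against 36.5% of all tested genes. Of the partners of polymerases I and III (0 of 8), Snapc2, of the complex for small nuclear RNA genes, read 207, 179 and 207 in Rb null against 141, 152 and 149 in wild type livers (0.33 ± 0.11, adjusted p = 0.0635), and Maf1, the repressor of polymerase III, changed by 0.06 ± 0.07. Of the kinases and helicases of TFIIH and Mediator (0 of 6), Cdk7, the kinase of TFIIH, read 195, 350.1 and 308 in Rb null against 396, 459 and 368 in wild type livers (-0.48 ± 0.18, adjusted p = 0.0909). The TBP regulators Dr1 (-0.08 ± 0.10) and Tbpl1 (0.07 ± 0.10), with 0 of 3 passing, and the mitochondrial transcription genes Polrmt (-0.06 ± 0.12) and Tfb2m (-0.01 ± 0.17), with 0 of 2, did not pass either.

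**Figure D5:**
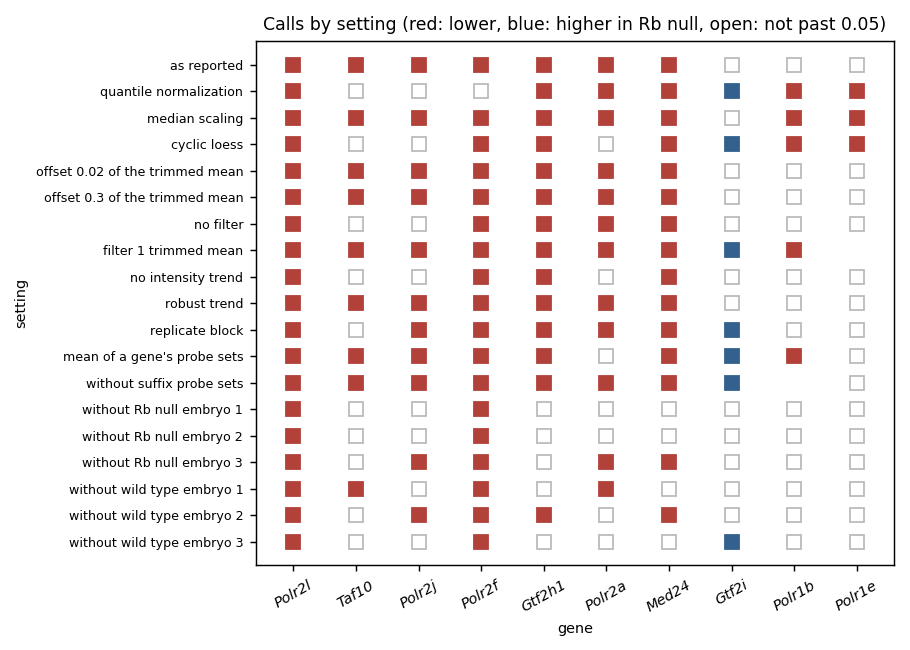
Genes (columns) that passed the test in Rb null against wild type livers under each processing setting (rows), with red squares for lower, blue for higher, open squares for not past 0.05 and blanks where the gene was not tested. Polr2l is red in every row and Polr2f in every row but 1, while the other columns change with the embryo left out or the scaling.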

How the data were processed

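Total RNA (6 ug) from 6 fetal livers, 3 Rb null and 3 wild type, was hybridised to 1 Affymetrix array per embryo, per the labels' protocols. The deposited signal values were computed by the authors with MAS5, per the submitters' processing notes, with version and scaling target not given in the sources used here. They are linear, and the 2% trimmed means of the arrays are 500.22 to 500.25. The array medians are 197 to 203 in Rb null and 176 to 186 in wild type livers.

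Genes were named by the platform annotation, and the 57 members were all found in a RefSeq table (GRCm38.p6). Of the probe sets, 10833 had 1 symbol, 396 several and 1193 none, and 66 were array controls and left out. Signals plus 50.02 (0.1 of the trimmed mean) were put on the log2 scale. Probe sets with a mean signal above 150.1, 6793 in all, entered a moderated two-sided limma test with an intensity trend (limma 3.58.1, R 4.3.3), with Benjamini-Hochberg adjustment over all of them and a threshold of 0.05. A gene stood by its brightest probe set. The procedure was tested on simulated data. The labels number the embryos but name no litter, batch or date, and embryos are separate animals.

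Members, classes and partner lists were chosen with earlier results of these data known. Named genes were those past the threshold, the largest subunits, Tbp and Ubtf, the smallest p values of classes and lists with few calls, genes whose probe sets disagreed, and genes near Rb1. Members named beyond these were chosen after their values were seen. Alternatives changed the scaling, offset, filter, variance model, probe set rule, replicate block or embryos.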

Additional observations from a re-analysis of the deposited data

How the results depend on the processing

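Of the 7 calls among members, that of Polr2l held under all 18 alternatives and that of Polr2f under 17, and leaving out single embryos took the number that fell to between 2 and 7 and the number that rose to between 0 and 1. Without Rb null embryo 1, Rb null embryo 2 or wild type embryo 3, only 2 members fell. Scaling the arrays to equal medians moved the median of all tested genes by -0.12 on the log2 scale. It gave 16 lower members (3 of polymerase I and 11 of polymerase II), and a member median of -0.20, which relative to all genes was -0.10, as with the deposited scaling. Quantile normalization gave a median of -0.11, with 2 of polymerase I, 1 of the shared genes lower and 1 member (of polymerase II) higher. Cyclic loess gave 2 of polymerase I and 3 of polymerase II lower and 1 of polymerase II higher. With no intensity trend 4 members fell, 2 of them of polymerase II, and 1 of polymerase II rose. With no filter 3 of polymerase II fell, and with the stricter filter of 500.2, 1 of polymerase I fell and 1 of polymerase II rose. Averaging the probe sets of each gene gave 1 lower for each of polymerases I and III and 1 higher of polymerase II, and leaving out probe sets with suffix letters gave 1 lower of polymerase III and 1 higher of polymerase II. Without single embryos, polymerase I had 0 to 1 lower, polymerase II 0 to 5 lower and 0 to 1 higher, and polymerase III 0 to 1 higher. Partner genes then numbered 2 to 4 lower and 0 to 1 higher. Median scaling gave 11 lower partners and 0 higher, cyclic loess 3 lower, no trend 3 lower, and no filter or the mean of probe sets 0 higher. The cause was not tested.

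No member that had passed the test turned its sign under any of the 18 alternatives. Of 54 members that could be compared, 12 turned negative after median scaling, 9 turned negative and 3 positive after quantile normalization, and 7 turned negative and 3 positive after cyclic loess. Other settings that kept all 6 embryos turned none. Among the genes recomputed one by one, which do not include every member, the turned values were Gtf3c1 (-0.0146), Polr1c (-0.0445), Polr1d (-0.0151), Tbp (-0.0986) and Tbpl1 (-0.0424) after median scaling, Polr1d (-0.0089), Tbp (-0.0768) and Tbpl1 (-0.0387) after quantile normalization, and Tbp (-0.0632) and Tbpl1 (-0.0331) after cyclic loess. Without single embryos the values ran from -0.151 to 0.0186 for Polr1a, from -0.0491 to 0.291 for Polr3a, from -0.159 to 0.0130 for Polrmt, from -0.0517 to 0.0766 for Tbp and from -0.133 to 0.207 for Tfb2m. Leaving out 1 embryo also brought in calls, of Med12 (-0.29) and Gtf2ird2 (-0.62) without Rb null embryo 3, of Polr3k (0.51) and Taf1d without wild type embryo 1 and of Gtf2i (0.33) without wild type embryo 3.

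Embryos of the same number deviated from their group means with correlations of -0.06, 0.05 and 0.27 over probe sets, so the numbers were not taken as pairs. With the replicate block, 6 members fell and 1 (of polymerase II) rose. Changes near 0.2 log2 units lay at the limit of what 3 arrays per genotype separated here.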

Other observations

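Taf9 and Polr2k, a TFIID subunit gene and a shared polymerase subunit gene, were represented only by probe sets that the annotation gives to several genes, so they stood for no gene in the comparison. The probe set listed for Polr2k and a predicted gene read 273, 247 and 252 in the Rb null livers, against 159, 195 and 163 in the wild type livers, and was higher (0.47 ± 0.11, limma adjusted p = 0.0183). The 4 probe sets listed for Taf9 with another gene ran from -0.38 ± 0.13 to 0.11 ± 0.06 and did not pass. Of the 9 member probe sets below the signal filter, that of Med12l, a relative of Med12, read 139.6, 133 and 143 in the Rb null livers, against 105, 85.6 and 51.7 in the wild type livers. The dimmest Taf1d probe set lay the other way, at 78.2, 86.9 and 88.0 in Rb null against 104.6, 89.3 and 91.0 in wild type livers. The values of both probe sets lie below the filter, and they were not tested in the main comparison.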
